A study of Mus musculus with 9 samples.

Results

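The genes described here encode the enzymes that cross-link collagen and elastin through lysine. They are the 5 lysyl oxidase genes Lox, Loxl1, Loxl2, Loxl3 and Loxl4 and the 3 lysyl hydroxylase genes Plod1, Plod2 and Plod3, taken by gene name as the 2 whole families, with earlier results of these data known. All 8 were found in both deposited tables, out of 20076 genes listed in either table and 18182 in both. RNA was sequenced from cultured mouse astrocytes of genotype Ink4a-/-, taken from brain, in 3 groups of 3 libraries: cells transfected with pcDNA HA-JICD1 puro (JICD1, the HA-tagged intracellular part of the Notch ligand Jagged1), with pcDNA NICD puro (NICD1, the intracellular part of the receptor Notch1), or with pcDNA puro (control). By their labels, all 3 groups are Ink4a-/- and received a plasmid with puromycin resistance, and the labels do not say whether the libraries of a group came from separate cultures. The authors deposited 1 table for each construct, which gives every gene a single log2 ratio over control together with a score that can run between 0 and 1. The tables used here hold no separate values for the 3 libraries of a group. The ratios therefore come without error or p-value, depth is unknown, and words such as higher and lower give only the sign of a ratio. A gene is called scored where its score reaches 0.8, which is not a significance level. Jag1, whose intracellular part the JICD1 plasmid carries, stood at -1.39 (score 0.759) for JICD1 over control in the authors' deposited table. For NICD1 over control the authors' deposited table listed Jag1 at 1.36 (score 0.819). Notch1, whose intracellular part the NICD plasmid carries, stood at 1.33 (score 0.735) for JICD1 over control and at 1.77 (score 0.815) for NICD1 over control in the authors' deposited tables, higher with both. Cdkn2a, the gene that encodes Ink4a, had no JICD1 ratio and stood at 7.59 (score 0.827) for NICD1 over control in the authors' deposited table; which part of the gene the deletion removes is not stated in the labels, and the genotype was not checked further. With 1 ratio per gene, RNA from a plasmid and RNA from the cell's own gene cannot be told apart. The Jag1 and Notch1 ratios therefore do not check the labels. JICD1 below means the libraries labelled JICD1, and every direction drawn from them rests on that label.

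Lysyl hydroxylases work inside the endoplasmic reticulum, where they hydroxylate lysines of newly made procollagen chains with iron, ascorbate and 2-oxoglutarate. Lysyl oxidases work mostly outside the cell: they use copper and a quinone cofactor made from their own residues to turn lysines and hydroxylysines of collagen and elastin into aldehydes, which then react to form the covalent cross-links that stiffen a matrix. In glioma, lysyl oxidase is known for its link with low oxygen and with invasion.

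The lysyl oxidases share a short copper-binding stretch rich in histidine. Part of it is shown here because the stretch is the common core of 5 genes whose ratios differ widely below. Its first 10 codons (30 bases) were read from GENCODE vM21 transcripts, 5′ to 3′, with the 3 histidine codons among them in capitals. The stretch continues beyond these codons, and the capitals do not mark which histidines bind copper. Lox has the stretch too and was compared, but its bases are not printed.
Loxl1: tgggagtggCATagctgtCACcaaCATtac
Loxl2: tggatttggCACgactgcCACaggCACtac
Loxl3: tgggtgtggCATgagtgtCATgggCATtac
Loxl4: tggatttggCACcagtgcCACaggCACtac
Over these 30 bases Loxl2 and Loxl4 had 28 identical bases (93.3%), and Loxl3 had 22 (73.3%) in common with each of them. Loxl1 was identical to Lox at 29 of 30 bases (96.7%) and to Loxl2 at 19 (63.3%). Similar as the stretch is, no run of 50 bases in the annotated transcripts of any of the 8 genes was found in those of another of the 8.

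Lox and Loxl2 were the lowest of the 8 genes in the libraries labelled JICD1, and neither was scored with NICD1. In the authors' deposited JICD1 table, 7 of the 8 genes had a ratio below 0, against 45.5% of all 18971 genes, and 1 (Plod3) lay above 0, against 54.5%. Lox, Loxl2 and Plod1 were scored lower and no member was scored higher, where 1.74% of all genes in the authors' deposited table were scored lower and 1.07% higher (2.81% either way). The median log2 ratio of the 8 genes was -0.60 in the authors' deposited JICD1 table, against 0.05 for all genes, and it moved to -0.13 without Lox. In the authors' deposited NICD1 table, 4 of the 8 lay below 0 and 4 above, where 51.5% of all 19287 genes lay below and 48.5% above. None of the 8 was scored with NICD1, against 1.64% of the genes in the authors' deposited table scored higher and 0.97% lower (2.61% either way). At a score of 0.7 or more the NICD1 count was 5 of 8 (3 higher and 2 lower), where 7.82% of all genes in the authors' deposited table were called. The median log2 ratio of the 8 was -0.06 there, against -0.02 for all genes of the authors' deposited table. In bulk RNA such as this, fewer cells of a type and less RNA per cell cannot be told apart.

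**Figure D1:**
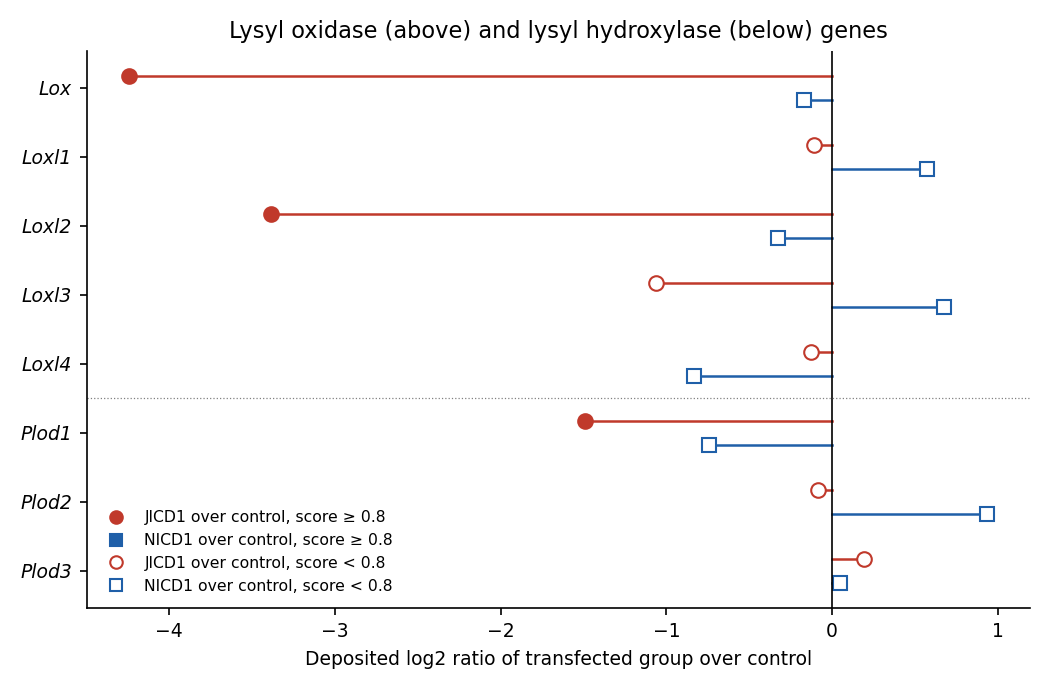
Deposited log2 ratio of each gene (horizontal axis) for JICD1 over control (red circles) and NICD1 over control (blue squares), filled where the score is 0.8 or more. Lox at -4.24, Loxl2 at -3.38 and Plod1 at -1.49, all with JICD1, are the filled points; there are no replicate values and so no error bars.

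Lox, the founding member of the family, encodes a secreted enzyme that is made with a propeptide. For JICD1 over control, its log2 ratio in the authors' deposited table was -4.24 (score 0.957), a level 18.9-fold lower. Only 259 of 18971 genes (1.37%) had a lower ratio in the authors' deposited table. For NICD1 over control, the authors' deposited table placed Lox at -0.17 (score 0.501), a 1.13-fold lower level. Lox thus lay near the bottom of the JICD1 table and inside the bulk of the authors' deposited NICD1 table, in which 37.0% of genes had a lower ratio. Loxl1, the closest relative of Lox in domain structure and known in mice for elastic fibre upkeep, did not share the low JICD1 value: the authors' deposited tables listed it at -0.11 (score 0.366) with JICD1 and 0.57 (score 0.727, 1.49-fold higher) with NICD1.

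Loxl2, Loxl3 and Loxl4 form the branch of the family that carries scavenger receptor cysteine-rich domains, and their values spread over most of the range of the 8 genes. Loxl2 cross-links basement membrane collagen IV and has been described as a partner of the mesenchymal factor Snai1. Its log2 ratio in the authors' deposited tables was -3.38 (score 0.925, 10.4-fold lower) for JICD1 over control and -0.33 (score 0.638, 1.26-fold lower) for NICD1 over control. Loxl3, which is needed for palate and spine development in mice, changed sign between the tables. With JICD1 it was at -1.06 (score 0.752, 2.09-fold lower) and with NICD1 at 0.68 (score 0.715, 1.6-fold higher) in the authors' deposited tables, unscored in both. Loxl4 was the single gene of the 5 oxidases with a lower value for NICD1 than for JICD1: its log2 ratios in the authors' deposited tables were -0.13 (score 0.380) with JICD1 and -0.83 (score 0.754) with NICD1. The median log2 ratio on chromosome 19, which holds Loxl4, was 0.46 in the authors' deposited NICD1 table, and relative to it Loxl4 was at -1.29 on the log2 scale.

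The value of Loxl2 carries a doubt about read assignment that those of Lox, Loxl1 and Loxl4 do not. Of the 5356 distinct 50-base runs in the GENCODE vM21 transcripts of Loxl2, 2411 (45.0%) were also found in transcripts of another gene. Of these shared runs, 2299 lay in Gm21451, a gene model near Loxl2 on chromosome 14. The sources used here do not give the read length or the handling of reads that match more than 1 gene. Gm21451 has its own entry in the authors' deposited tables, with log2 ratios of -1.65 (score 0.291) for JICD1 and -1.21 (score 0.270) for NICD1, below 0 in both and unscored. Lox, Loxl1 and Loxl4 shared 0 such runs with any other gene. Loxl3 shared 401 of 4694 (8.54%), all with its neighbour Htra2, whose exons overlap it on the opposite strand over 535 bases. The authors' deposited tables listed Htra2, a mitochondrial protease gene, at -0.13 with JICD1 and 0.25 with NICD1. The sources used here do not say whether counting used strand, and without strand, reads from the overlap of Loxl3 and Htra2 cannot be told apart.

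**Figure D2:**
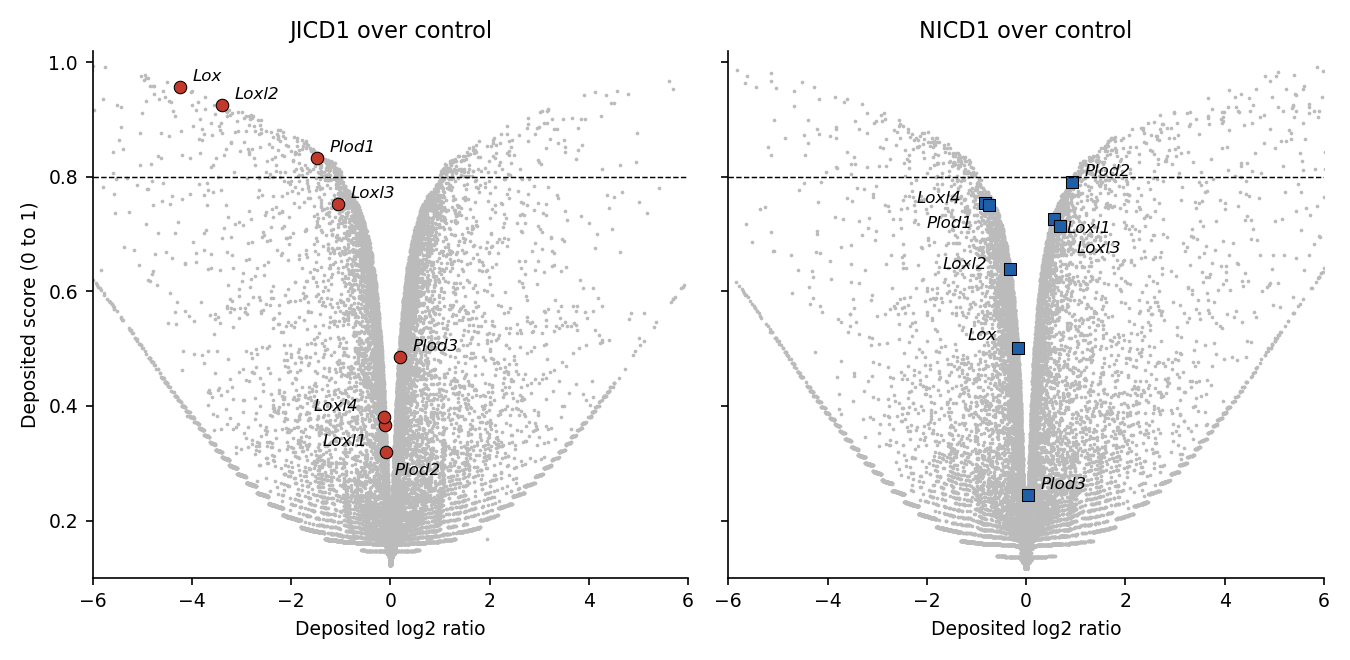
Deposited score (vertical axis, 0 to 1) against deposited log2 ratio (horizontal axis, drawn from -6 to 6) for the genes found in both tables (grey) and for the 8 genes (coloured), with JICD1 over control on the left and NICD1 over control on the right; the dashed line marks a score of 0.8. Lox, Loxl2 and Plod1 lie above the line with JICD1, and Plod2, at a score of 0.791, is the nearest below it with NICD1.

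The score and the ratio are different quantities, and genes with ratios of the same size differed widely in score. In the authors' deposited JICD1 table, 9.33% of the 300 genes nearest to Lox in absolute log2 ratio were scored, and 99.3% of them had a lower score than Lox. For Loxl2 these shares of the authors' deposited JICD1 table were 8.67% and 99.7%, and for Plod1 7.33% and 96.3%. These 3 genes are the ones whose score passed 0.8, so their place restates that choice. For the other 5 genes, the share of the nearest 300 with a lower score in the authors' deposited JICD1 table was 73.7% for Loxl4, 76.0% for Plod2, 77.7% for Plod3, 78.7% for Loxl1 and 83.3% for Loxl3. An identical positive ratio in both of the authors' deposited tables (within 1e-06) was found for 1 gene. By contrast, there were 694 genes whose negative ratio is identical in both by the same limit, meaning that the transfected groups have the same value. Among those with a JICD1 log2 ratio within 0.25 of that of Lox, the 25 scores in the authors' deposited table ran from 0.381 to 0.426, against 0.957 for Lox. The corresponding 93 scores near Loxl2 ran from 0.293 to 0.336 and the 96 near Plod1 from 0.167 to 0.186 in the authors' deposited table. Near the unscored Loxl3, at a score of 0.752, the 81 scores ran from 0.162 to 0.168. For Lox, Loxl2 and Plod1 this contrast again restates their choice by score. These ranges are given as a description and do not test how many reads lie behind the ratios.

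Among the lysyl hydroxylases, Plod1 lay farthest from 0 with JICD1, Plod2 with NICD1, and Plod3 lay close to control with both. Plod1, the hydroxylase of helical lysines whose loss causes a form of Ehlers-Danlos syndrome in humans, was at a log2 ratio of -1.49 (score 0.832, 2.81-fold lower) for JICD1 over control in the authors' deposited table. With NICD1 the authors' deposited table listed Plod1 at -0.74 (score 0.751), 1.67-fold lower. Plod2, which hydroxylates the telopeptide lysines and is known as a hypoxia-induced gene, stood at -0.09 (score 0.320) with JICD1 and at 0.93 (score 0.791) with NICD1 in the authors' deposited tables. Its NICD1 level was thus 1.91-fold higher with a score just under the threshold, and 17.5% of genes had a higher ratio in the authors' deposited NICD1 table. Plod3, which also transfers glucose onto galactosylhydroxylysine, was at 0.19 (score 0.485) with JICD1 and 0.05 (score 0.244) with NICD1 in the authors' deposited tables.

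For the 3 hydroxylases the transcript that the tables describe is short. The authors' deposited tables describe Plod1 by a processed transcript at chr4:147931689-147936708 on GRCm38, which covers 18.6% of the span of the gene, and Plod2 by a retained-intron transcript at chr9:92595345-92601066, which covers 8.64%. For Plod3 it is a partial coding transcript at chr5:136991624-136995177, 36.9% of the span. The sources used here do not say whether a ratio stands for that transcript or for the whole gene. Loxl2 and Loxl4 were described by coding transcripts that cover 96.9% and 70.1% of the span of their genes, and Loxl3 by one with the full span. Plod3 also shares 457 of 4659 50-base runs (9.81%) with other genes, 431 of them with Znhit1, which overlaps it on the opposite strand and stood at 0.24 with JICD1 and -0.31 with NICD1 in the authors' deposited tables. Plod2 shares 297 of 5386 (5.51%), all with Gm38391, and Plod1 43 of 6873 (0.626%).

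Promoter sequence from the RefSeq table for GRCm38.p6 was described for 3 of the 8 genes, Plod1, Plod3 and Loxl4. Lox was left out of this step, so its absence here does not mean that it had no match. Plod1 and Plod3 are printed because they are the hydroxylases with the lowest and the highest JICD1 ratio. Each is the run of 250 bases before the annotated start on the transcribed strand, 5′ to 3′. Capitals mark TGGGAA, read as its reverse complement where it is on the opposite strand, the core recognised by RBPJ, the DNA-binding partner of NICD1, and ACGTG, the core recognised by hypoxia-inducible factors; both strands were searched and the matches do not overlap.
Plod1, chr4:147936777-147937026, minus strand: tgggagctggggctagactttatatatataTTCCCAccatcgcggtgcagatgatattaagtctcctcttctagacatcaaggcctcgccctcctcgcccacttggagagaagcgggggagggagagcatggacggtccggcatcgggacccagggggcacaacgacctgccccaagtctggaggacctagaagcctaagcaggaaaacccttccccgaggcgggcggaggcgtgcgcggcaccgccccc
Plod3, chr5:136986769-136987018, plus strand: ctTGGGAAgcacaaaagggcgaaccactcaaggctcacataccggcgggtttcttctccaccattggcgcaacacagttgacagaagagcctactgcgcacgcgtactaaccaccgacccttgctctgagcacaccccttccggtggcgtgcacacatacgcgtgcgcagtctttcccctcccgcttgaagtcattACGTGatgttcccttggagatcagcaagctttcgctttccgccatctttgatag
Both windows hold TGGGAA once, beginning 220 bases before the start in Plod1, where it lies on the opposite strand, and 248 bases before it in Plod3. The Loxl4 window also holds it once, on the opposite strand, 138 bases before the start. Of 32851 such windows, 21.6% hold TGGGAA. The form ACGTG of the hypoxia core was found once in the Plod3 window, 54 bases before the start. This form was in no position of the Plod1 and Loxl4 windows, against 16.6% of all windows that hold it. These letters are a description of the sequence, and the data do not say whether a factor binds there.

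Setting the constructs against each other, 6 of the 8 genes were lower with JICD1 than with NICD1, against 43.7% of the 18182 genes in both tables. The JICD1 minus NICD1 difference of the log2 ratios in the authors' deposited tables has no score, and both ratios share the same control. It was -4.07 for Lox (16.8-fold lower with JICD1 than with NICD1), -3.06 for Loxl2 (8.31-fold lower), -1.74 for Loxl3 (3.34-fold lower) and -1.02 for Plod2 (2.03-fold lower). These 4 were at or below -1, where 13.6% of all genes were, and none of the 8 was at 1 or above, where 10.6% were. Plod1 had a difference of -0.75 and Loxl1 one of -0.68, while Plod3 at 0.14 and Loxl4 at 0.70 were higher with JICD1 than with NICD1. The order of the 8 genes by this difference follows neither the division into oxidases and hydroxylases nor the branches of the oxidase family. The median difference was -0.88 for the 8 genes and 0.04 for all genes.

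**Figure D3:**
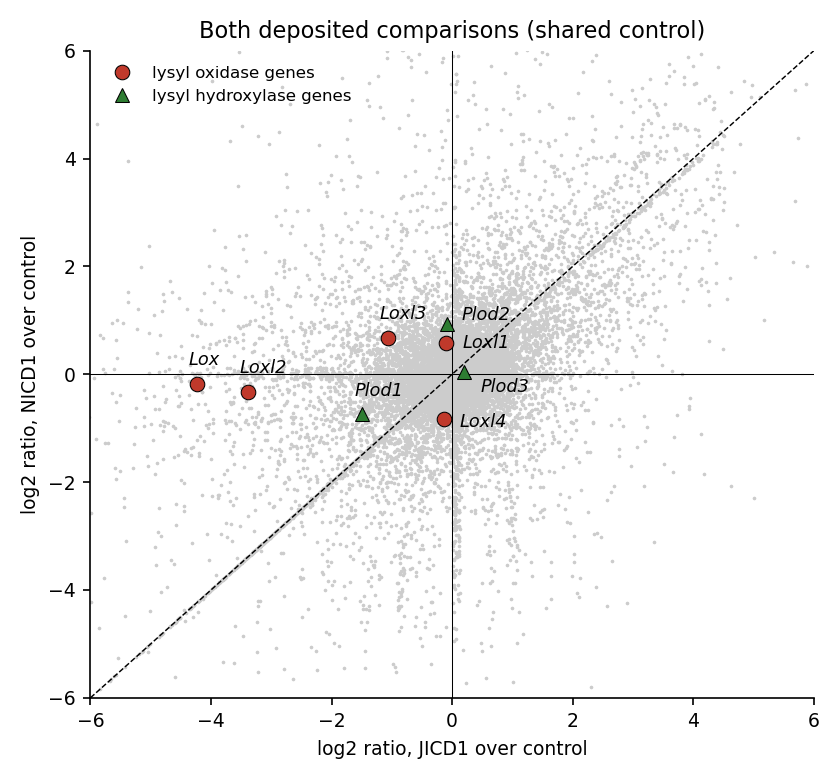
Deposited log2 ratio for NICD1 over control (vertical axis) against that for JICD1 over control (horizontal axis), both drawn from -6 to 6, for genes in both tables (grey), lysyl oxidase genes (red circles) and lysyl hydroxylase genes (green triangles); on the dashed line both ratios are equal. Lox and Loxl2 lie far to the left and near 0 on the vertical axis, and Plod3 and Loxl4 are the 2 genes to the right of the dashed line.

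The genes with values most like those of the scored members were looked for among the 529 other named genes that were scored with JICD1 and listed in both tables, by distance over the 2 log2 ratios. Nearest to Lox were Pxdc1 (-4.37 with JICD1 and -0.13 with NICD1), Ccn2 (-4.01 and -0.24) and Synpo (-4.53 and -0.41) in the authors' deposited tables. Edil3 (-3.32 and -0.22), Vegfc (-3.42 and -0.49) and Gpr153 (-3.34 and -0.17) were nearest to Loxl2 in the authors' deposited tables, in the same order of constructs. For Plod1 they were Oaf (-1.40 and -0.73), Prss23 (-1.49 and -0.64) and Plec (-1.38 and -0.70) in the authors' deposited tables. The likeness rests on 2 ratios with a shared control.

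The rest of the collagen cross-linking pathway was described through 8 lists of genes, of which 52 of 57 genes had a ratio. In the authors' deposited JICD1 table, 10 of the 52 were scored lower and 1 higher, with a median log2 ratio of -0.35. In the authors' deposited NICD1 table, 2 were scored lower and 9 higher, with a median of 0.41. Of all genes, 1.74% were scored lower and 1.07% higher with JICD1, and 0.97% lower and 1.64% higher with NICD1. These background shares hold for each list below as well.

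Collagens, on which these enzymes act, held the most scored genes of any list. Of the 10 fibrillar and basement membrane collagen genes, 5 were scored lower and 1 higher with JICD1, and 1 lower and 3 higher with NICD1, in the authors' deposited tables. Col5a3, a chain of collagen V, stood at -4.84 (score 0.958) with JICD1 and 0.74 (score 0.744) with NICD1 in the authors' deposited tables. Col3a1 was lower with both constructs, at -2.81 (score 0.908) and -3.31 (score 0.927), and Col11a1 higher with both, at 3.87 (score 0.855) and 4.58 (score 0.925), in the authors' deposited tables. Col1a2 lay at 0.92 (score 0.751) with JICD1 and 1.80 (score 0.862) with NICD1 in the authors' deposited tables.

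Genes for proteins that activate or place lysyl oxidase had 3 members scored lower with JICD1 and 2 scored higher with NICD1, over the processing and scaffold lists. Bmp1, the protease that removes the lysyl oxidase propeptide as well as that of procollagen, was scored lower with JICD1 at -1.22 (score 0.818) and stood at 0.41 (score 0.672) with NICD1 in the authors' deposited tables. Its relative Tll1 stood at -0.83 (score 0.172) with JICD1 and 6.02 (score 0.843) with NICD1 in the authors' deposited tables. Each was the single scored gene of the 6 measured on the processing list in its comparison. Of 7 measured elastic fibre and scaffold genes, Fn1 and Fbn1 were scored lower with JICD1, at -1.71 (score 0.862) and -1.39 (score 0.830), and Fbln5 was scored higher with NICD1, at 2.42 (score 0.858), in the authors' deposited tables. Fn1 encodes fibronectin, which binds lysyl oxidase and helps its activation, and Fbln5 encodes a fibulin that binds Loxl1. With the other construct the authors' deposited tables listed Fn1 at 0.17 and Fbn1 at 0.45 with NICD1, and Fbln5 at 0.02 with JICD1.

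Prolyl hydroxylation is the companion modification of procollagen. None of its 10 genes was scored higher and 1 was scored lower with JICD1, against 3 higher and 1 lower with NICD1, in the authors' deposited tables. P4ha1 and P4ha2 are among the genes for catalytic subunits of prolyl 4-hydroxylase. They were scored higher with NICD1 at 1.15 (score 0.823) and 1.2 (score 0.809) in the authors' deposited tables. With JICD1 P4ha1 and P4ha2 stood at 0.40 (score 0.634) and 0.57 (score 0.646) in the authors' deposited tables. P3h2 was scored lower with both constructs, at -2.64 (score 0.875) and -2.66 (score 0.882) in the authors' deposited tables. P3h3, another member of the prolyl 3-hydroxylase family, stood at 2.65 (score 0.796) with JICD1 and 2.81 (score 0.828) with NICD1 in the authors' deposited tables.

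Among the genes that serve lysyl hydroxylases or supply copper, 1 was scored, with JICD1. Of all genes, 2.81% were scored with JICD1 and 2.61% with NICD1. Of 7 measured hydroxylysine glycosylation and chaperone genes, 1 was scored lower with JICD1 and none with NICD1: Fkbp7, a peptidyl-prolyl isomerase of the endoplasmic reticulum, at -1.86 (score 0.802) with JICD1 and 0.81 (score 0.724) with NICD1 in the authors' deposited tables. None of the 5 copper supply genes was scored in either of the authors' deposited tables, and their JICD1 ratios lay between -0.56 and 0.36. Atox1, the copper chaperone, was the member with the highest score, at -0.56 (score 0.723) with JICD1 and -0.19 (score 0.522) with NICD1 in the authors' deposited tables. Other cross-linking enzymes had 1 scored gene of 4: Tgm2, a transglutaminase, at -1.72 (score 0.705) with JICD1 and 1.82 (score 0.837) with NICD1 in the authors' deposited tables. The 3 amine oxidases outside the family were unscored, with Aoc3 at -2.39 (score 0.383) with JICD1 and -1.97 (score 0.369) with NICD1 in the authors' deposited tables.

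**Figure D4:**
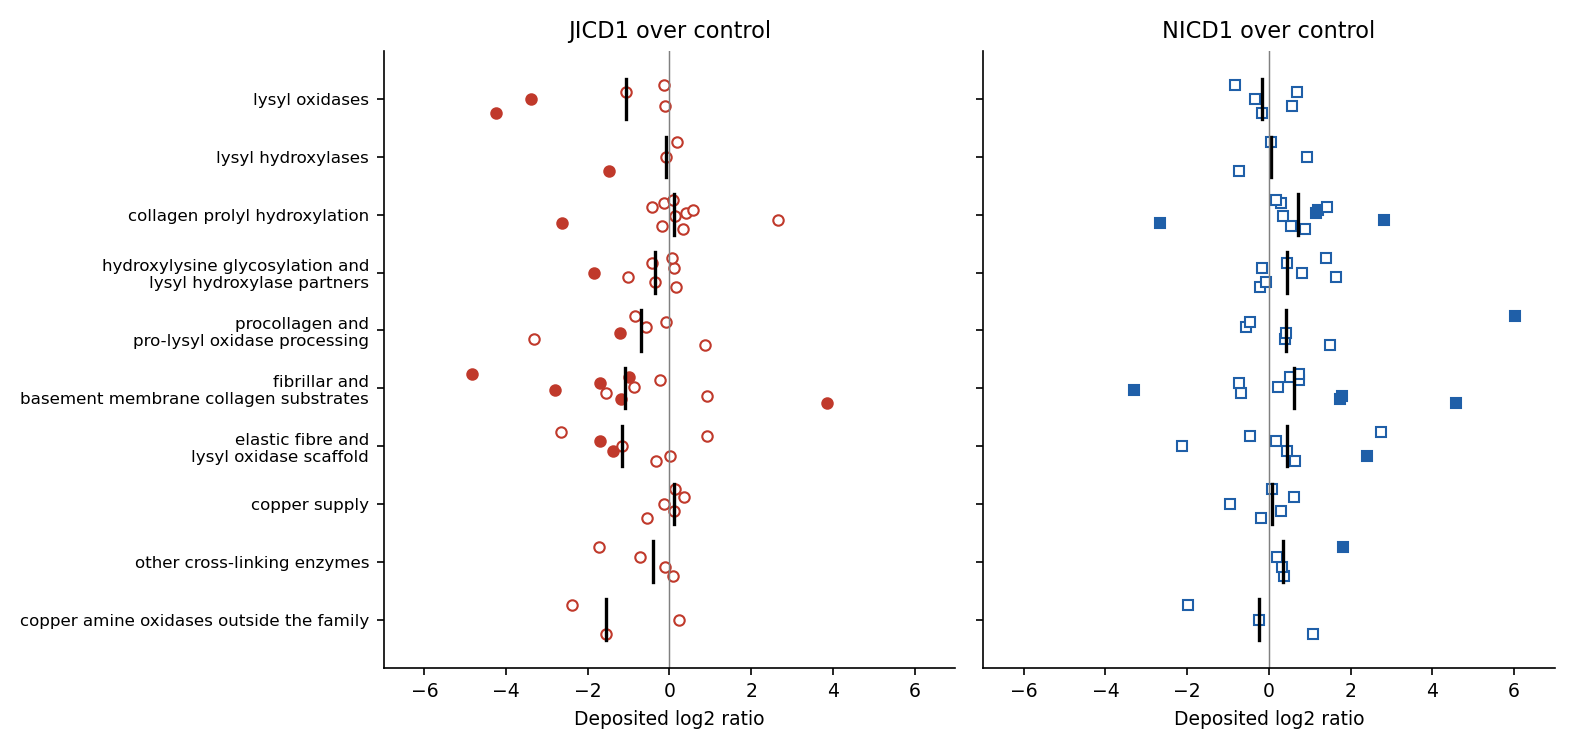
Deposited log2 ratio (horizontal axis) of each measured gene of the 2 enzyme families and of the 8 pathway lists (rows), with JICD1 over control on the left and NICD1 over control on the right; filled points have a score of 0.8 or more and black bars are medians. The lysyl oxidase median is -1.06 with JICD1 and -0.17 with NICD1, and the collagen substrate median is -1.09 with JICD1 and 0.62 with NICD1.

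Markers of other cells also had ratios away from 0, and their part in the results above was not tested. Of 8 fibroblast and pericyte markers 6 had a JICD1 ratio, 5 of them below 0 and 3 scored lower, with a median of -2.27, and 5 had a NICD1 ratio, 4 below 0 and 1 scored lower, with a median of -1.86, in the authors' deposited tables. Dcn stood at -8.67 with JICD1 and -5.08 with NICD1, Anpep at -3.79 and -1.86, and Pdgfrb at -2.17 and 0.08, in the authors' deposited tables. Astrocyte markers had a median of -0.72 with JICD1 (8 measured, none scored) and -0.69 with NICD1 (9 measured, Sox9 scored lower at -1.64); Aqp4 matched no gene with a ratio, and Gfap was unscored at -1.36 with JICD1 and -1.52 with NICD1 in the authors' deposited tables. Levels are not in the tables, so whether the labelled cell type expresses its defining markers could not be checked. Microglial markers had a median of -1.70 with JICD1 and 0.88 with NICD1, in the authors' deposited tables. Tmem119 was the single scored microglial marker, at -8.48 (score 0.962) with JICD1 and -1.36 (score 0.781) with NICD1 in the authors' deposited tables, and the only 1 of the 6 below 0 with NICD1. The endothelial list had no scored gene, and the neuronal list had Map2 scored higher and Tubb3 scored lower with both constructs in the authors' deposited tables.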

How the data were processed

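RNA-seq libraries of 9 samples, 3 per group, are behind the tables. The submitters' processing notes list Bowtie2, BWA and mm9 without role or version, while the tables' description column names GRCm38. The sources used here do not say how reads were counted or libraries pooled. Per the file headers, the deposited columns hold, for each gene, the log2 ratio (transfected over control) and a score named Probability. No method is stated for the score, which is not treated as a p-value. A count test across libraries had been considered; with 1 ratio per gene none could be made.

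Genes were matched by the tables' symbols or, by gene ID, to NCBI and GENCODE vM21 names (GRCm38), which gave names to 18681 (JICD1 table, of 18971) and 18998 (NICD1 table, of 19287) genes. The members, lists and the score threshold of 0.8 were chosen with earlier results of these data known. Named are the 8 members, up to 4 scored genes of a list (or the one with the highest score), and the 3 genes nearest to each scored member by Euclidean distance over both ratios. Gm21451, Htra2, Znhit1 and Gm38391 were named for shared sequence, after their values were seen, as were Jag1, Notch1, Cdkn2a and Gfap. Shared sequence was counted as 50-base runs on both strands. Alternatives were other score thresholds, centring on the table or chromosome median, and symbols alone. The counting and distance steps were tested on simulated data. Python 3.11.15, pandas 2.3.3 and matplotlib 3.10.9 were used.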

Additional observations from a re-analysis of the deposited data

How the results depend on the processing

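The sign of all 24 single values (8 genes, 3 comparisons) held after subtracting the median of the table or of the chromosome. The median of the 8 genes, -0.60 for JICD1, -0.06 for NICD1 and -0.88 for their difference, became -0.64, -0.045 and -0.95 after subtracting table medians and -0.70, -0.042 and -0.94 after subtracting chromosome medians. Without the member with the largest absolute value (Lox, Plod2 and Lox) it was -0.13, -0.17 and -0.75. With the tables' own symbols alone, only Lox and Loxl1 were left; their medians were -2.17, 0.20 (a change of sign) and -2.37, and 1 of them was scored with JICD1. At a score of 0.7 or more, 4 genes were called with JICD1, all lower, and 5 with NICD1, 3 higher and 2 lower. Of all genes, 8.61% and 7.82% were called there. At 0.9 it was 2 and 0 of the 8, where 0.659% and 0.612% of all genes were called. Requiring an absolute log2 ratio of 1 besides a score of 0.8 left 3 and 0. The share of all genes passing both limits was not computed. No paired analysis was possible because the tables hold no value per library, and leaving out each library was not run for the same reason. Depth, and so the precision of any ratio, is unknown.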

Other observations

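Genes beside Lox, Loxl2, Plod1 and Plod2 on GRCm38 differed widely in their ratios. Next to Lox, the authors' deposited tables listed Srfbp1 at -0.42 (score 0.653) with JICD1 and -0.32 (score 0.610) with NICD1. Beyond Srfbp1 lay Hsd17b4, at 0.40 and -0.03 in the authors' deposited tables. On the other side of Lox, Zfp474 had a log2 ratio of -1.40 with both constructs in the authors' deposited tables, at low scores (0.180 with JICD1 and 0.181 with NICD1). Beyond Zfp474, 1700034E13Rik had one of -3.10 with both, also unscored (0.292 with JICD1 and 0.297 with NICD1). Both of these are among the genes with identical negative ratios. Beyond Loxl2 the authors' deposited tables listed R3hcc1 at -0.35 with both constructs and Chmp7 at 0.02 with JICD1 and -0.12 with NICD1. Beside Plod1, Mfn2 stood at -0.01 with JICD1 and -0.39 with NICD1 in the authors' deposited tables. On the other side of Plod1, 2510039O18Rik stood at -0.06 with JICD1 and -0.29 with NICD1 in the authors' deposited tables. Beyond 2510039O18Rik, Nppb was at -1.49 (score 0.712) with JICD1, the same ratio as Plod1 to 2 decimals. With NICD1 the authors' deposited table listed Nppb at -1.44 (score 0.725). Next to Plod2, 1700057G04Rik was unscored at -0.89 (score 0.235) with JICD1 and -0.40 (score 0.194) with NICD1 in the authors' deposited tables. Beyond 1700057G04Rik, Plscr2, a phospholipid scramblase gene, was scored lower with JICD1 at -1.26 (score 0.822). With NICD1 the authors' deposited table listed Plscr2 at 0.17 (score 0.481). On the other side of Plod2, Dipk2a stood at -0.12 with JICD1 and 0.20 with NICD1, and beyond it Slc9a9 at 0.91 and -0.39. Fv1, beyond Mfn2, stood at -0.10 and -0.19, and Entpd4b, before Loxl2, at 0.15 and -0.02, in the same order of constructs. Only genes listed in the tables were considered, so unlisted genes may lie between. These neighbours were named by position after their values were seen.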
